A study of Mus musculus with 24 samples.

Results

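Hearts of adult male mice that carried a mutant thyroid hormone receptor from conception were compared with hearts of wild-type mice, in both cases without any hormone treatment. The comparison took the 6 TRα1+/m and the 6 wild-type offspring of dams that drank water without hormone, which are 12 of the 24 mice of the series. They were chosen by the genotype and the treatment of the dam given in the labels, and no measured value was used. TRα1, a product of Thra, is the main thyroid hormone receptor of heart muscle. It sits on DNA with or without hormone. Without T3 (triiodothyronine) it holds corepressors and keeps many of its targets low, and with T3 it exchanges them for coactivators. In the rodent heart, T3 is known to favour the fast α-myosin over the slow β-myosin, to raise pacemaker channel and calcium pump genes and to quicken the heartbeat. The R384C mutation lowers the affinity of the receptor for T3, so that the mutant protein interferes with its wild-type partner at ordinary hormone levels.

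TRα1+/m mice are heterozygous for this mutation and keep 1 wild-type copy of Thra. The mutation is in the germ line, so every tissue carried it throughout life, and effects within heart cells and effects through other organs cannot be told apart in these groups. All mice were males of the C57/BL6NCr strain, 4 to 5 months old by the labels and housed at 22 °C. Wild-type females had been mated with heterozygous males, and the dams of both groups drank water with 0.01% bovine serum albumin between embryonic days 12.5 and 18.5 by the labels. The other 12 mice, 6 of each genotype, came from dams that drank 0.5 mg/L T3 in the same solution over the same days, and no offspring was itself treated. Whole-heart RNA of each mouse was hybridised to 1 Clariom S mouse array, and all values below are log2 expression values, on which a difference of 1 is a doubling.

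The 12 arrays were alike in their overall distribution, with medians of 6.86 to 6.94 and 18640 to 18844 genes above a log2 value of 4. Correlations across genes were 0.980 to 0.989 within and 0.976 to 0.987 across the genotypes, and 0 pairs of arrays were identical. Heart muscle genes stood near the top of the scale in every heart, with Myh6 at 19.59 to 19.81 and Tnnt2 at 18.91 to 19.25. The 5222 negative control probe sets averaged 5.65 to 5.98 per array. Of the 321 genes called below, 43 had a group mean at or under 5.98, 18 of them in both groups, and for these a log2 difference is given as measured and not as a fold. Of the 19801 genes tested, 7576 had both group means at or under 5.98. The shares over all genes tested given below include them. TRα1+/m mouse 4 stood apart from the rest. Its mean over 47 ribosomal protein genes was 13.35, against 12.38 to 12.47 in the other TRα1+/m mice, and its first principal component was 48.4, against 6.41 to 16.4. The mice are numbered in the labels, and numbers below 20 were held by 1 of 6 wild-type and 3 of 6 TRα1+/m mice. Litters and dams are not given, so p-values measure the spread between these mice. All genes were tested in 1 limma fit, and a gene was said to rise or fall where its adjusted p was under 0.05.

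Promoters are shown for a gene that fell and a gene that rose, since thyroid hormone receptors bind DNA at pairs of the half-site AGGTCA. The sequences are those of RefSeq on GRCm38.p6, from 250 bases before to 50 after the annotated start of the gene, with the half-site in capitals on either strand (it reads TGACCT on the opposite one).
Hcn2, chr10:79716384-79716683, plus strand: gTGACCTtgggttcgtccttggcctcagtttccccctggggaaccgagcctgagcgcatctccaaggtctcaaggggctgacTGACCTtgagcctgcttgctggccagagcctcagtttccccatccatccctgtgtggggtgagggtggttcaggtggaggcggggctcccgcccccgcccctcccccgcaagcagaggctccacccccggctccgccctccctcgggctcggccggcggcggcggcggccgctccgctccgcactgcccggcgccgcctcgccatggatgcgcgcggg
Myh7, chr14:54994577-54994876, minus strand: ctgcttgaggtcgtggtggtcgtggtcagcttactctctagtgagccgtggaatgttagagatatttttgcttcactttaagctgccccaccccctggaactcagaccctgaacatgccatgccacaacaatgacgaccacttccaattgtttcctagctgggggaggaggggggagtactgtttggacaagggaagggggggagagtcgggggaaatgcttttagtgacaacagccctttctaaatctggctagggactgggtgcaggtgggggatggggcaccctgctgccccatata
The Hcn2 window held 2 half-sites, and the Myh7 window held 0. In all, the half-site was found in 10.9% of 101 promoters of genes that rose, in 15.1% of 192 promoters of genes that fell and in 13.8% of 17317 promoters of the genes tested. The shares of the changed genes lay on either side of the share of all promoters. The half-site repeated after 4 bases, the classical arrangement for this receptor, was found in 0 promoters of any of these sets. Only exact copies within the window were counted. With 0 among all 17317 promoters, this search could not tell the changed genes from the others. The promoter of Kcne1 is not shown.

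Of 19801 genes tested, 321 differed between the genotypes, or 1.62%. In TRα1+/m hearts 112 genes were higher (0.566% of those tested) and 209 were lower (1.06%). Their median difference was 1.83-fold, and 113 of them changed at least 2-fold, 38 upwards and 75 downwards. These figures are as measured. They include the 43 genes with a group mean at or under the negative controls, among them Kcne1 and Ano5. For 234 of the 321 (72.9%) the values of the 6 TRα1+/m and the 6 wild-type mice did not overlap, as was so for 2.76% of all genes tested. Among genes with a symbol, the largest rises were those of Cep128 (3.14), Slc16a7 (2.79), Scd4 (2.47), Kcne1 (2.45) and Myh7 (2.19), and the largest falls were those of Lrtm1 (-2.21), Apobec1 (-1.92), Ano5 (-1.88), Camk2b (-1.81) and Ogdhl (-1.78). A probe set without a symbol rose by 2.51, between Slc16a7 and Scd4. Over all genes tested the median difference was -0.01. When TRα1+/m mouse 4 was left out, 114 genes were higher and 155 lower, and 234 of the 321 were among them.

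**Figure D1:**
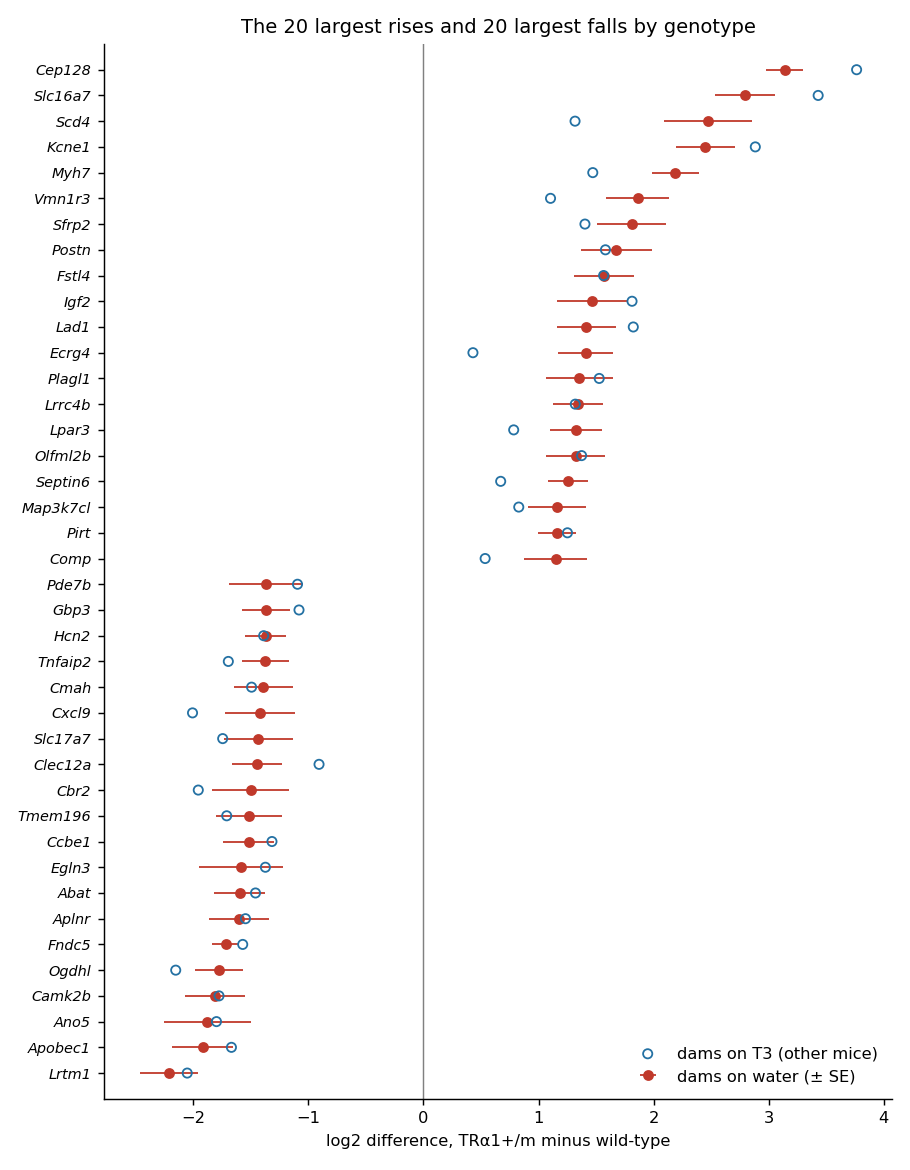
Difference between TRα1+/m and wild-type hearts on the log2 scale (horizontal axis) for the genes with a regular symbol that had the 20 largest rises and the 20 largest falls; filled points with bars are the mice of water-treated dams with the standard error, and open circles are the other 12 mice, of T3-treated dams. The filled points run from -2.21 for Lrtm1 to 3.14 for Cep128, and every open circle lies on the same side of 0 as its filled point.

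Thra itself was higher in the mice that carry its mutant allele. The array gives 1 value for Thra, which takes both alleles together and does not part TRα1 from other products of the gene. Thra (GRCm38.p6 chromosome 11, 98740776 to 98769006) ran from 11.47 to 12.04 in wild-type hearts (median 11.71) and from 12.15 to 12.67 in TRα1+/m hearts (median 12.26). The groups did not overlap, and the rise was 0.58 (standard error 0.13, adjusted p = 0.0134). Thrb encodes the second thyroid hormone receptor, TRβ. It ran from 9.62 to 10.18 in wild-type and from 8.61 to 9.76 in TRα1+/m hearts, and the ranges overlapped. Its difference of -0.67 (standard error 0.19, adjusted p = 0.0727) did not pass the test. It passed without TRα1+/m mouse 54 (adjusted p = 0.0337) and with array weights (adjusted p = 0.0407). Among the 20 tested receptors, deiodinases, hormone transporters and coregulators, Thra was the 1 gene that rose and 0 fell, with a median of -0.06. That is 5%, against 1.62% of all genes tested. Dio2, the activating deiodinase, was at 0.58 (adjusted p = 0.553), and the corepressor partner Hdac3 was at 0.14 (adjusted p = 0.826).

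Of 35 genes known to respond to T3 in heart or other tissues, 3 rose (Kcne1, Myh7 and Tnni1) and 3 fell (Hcn2, Bcl3 and Acta1), with a median of -0.09 against -0.01 for all genes tested. The share of 17.1% stands against 1.62% over all genes, and the list had been drawn up with earlier results of these data known. Many of all genes tested lie at or under the negative controls. Neither this list nor those below were compared with expressed genes alone. Bcl3, a regulator of NF-κB that T3 is known to induce in liver, ran from 6.03 to 6.96 in wild-type and from 4.51 to 5.90 in TRα1+/m hearts, without overlap, a fall of 1.31 (standard error 0.26, adjusted p = 0.00467). The TRα1+/m mean of Bcl3 was under the level of the negative controls. Other members of the list did not pass. The transcription factor genes Klf9 and Hr were at -0.58 (adjusted p = 0.254) and -0.51 (adjusted p = 0.111), and the lipogenic gene Thrsp was at 0.63 (adjusted p = 0.771).

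Among 56 genes of the contractile apparatus, Myh7, Tnni1 and Fhl1 rose and Acta1, Lmod3 and Myoz2 fell, which is 10.7% against 1.62% of all genes tested. Myh7 encodes the slow β-myosin heavy chain, the main ventricular myosin of the mouse before birth. It ran from 15.95 to 17.02 in wild-type hearts (median 16.20) and from 18.26 to 19.33 in TRα1+/m hearts (median 18.39), so that the lowest TRα1+/m heart lay 1.24 above the highest wild-type heart. The difference was 4.56-fold (2.19, standard error 0.20, adjusted p = 1.35e-07). Tnni1, the slow skeletal troponin I of the fetal heart, lay under the level of the negative controls in both groups, at 3.20 to 4.07 in wild-type and 4.11 to 5.29 in TRα1+/m hearts, so the size of its change cannot be read. It passed the test with a measured difference of 1.07 (adjusted p = 0.0156), and its adjusted p was as high as 0.0525 when 1 mouse was left out, missing the threshold without wild-type mouse 57 and without TRα1+/m mouse 5. The adult partners of these genes, Myh6 and Tnni3, had differences of -0.09 (adjusted p = 0.829) and -0.03 (adjusted p = 0.972). Myh6 lay at 19.68 to 19.81 in wild-type and 19.59 to 19.69 in TRα1+/m hearts, close to the highest value of the whole table, 19.93, so a difference near that ceiling could be hidden. The highest Myh7 value, 19.33, is not far under it, so the fold measured for Myh7 could be too small.

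Acta1, the skeletal α-actin that the heart uses before birth, went the other way from Myh7 and Tnni1. It ran from 13.66 to 14.36 in wild-type hearts, and from 12.24 to 14.46 in TRα1+/m hearts (median 12.63), in which 1 mouse was above all wild-type mice. The fall of 1.09 (standard error 0.27, adjusted p = 0.0305) missed the threshold in 8 of the 12 fits made without 1 mouse, where its adjusted p ran from 0.000375 to 0.0952, and in the fit of the 12 arrays alone (adjusted p = 0.0692). Myoz2, a Z-disc protein that binds calcineurin, fell by 0.59 (adjusted p = 0.0115), from a range of 18.93 to 19.18 in wild-type to one of 18.23 to 18.82 in TRα1+/m hearts, without overlap. The wild-type values of Myoz2 are not far under the ceiling, so its fall could be larger than measured. Lmod3, which builds thin filaments, fell by 0.70 (adjusted p = 0.0368) and Fhl1, a LIM protein of the sarcomere, rose by 0.68 (adjusted p = 0.0237). Both missed the threshold in some of the fits without 1 mouse, Lmod3 in 10 and Fhl1 in 5 of 12, and Lmod3 also with the label number range as a block (adjusted p = 0.0696). The natriuretic peptide genes, which overloaded ventricles express, did not pass: Nppa had a difference of -0.21 (adjusted p = 0.941) and Nppb of -0.55 (adjusted p = 0.607). Nppa is also in the list of atrial genes, whose mean ran from 10.97 to 13.28 in wild-type and from 11.31 to 13.34 in TRα1+/m hearts. The part of atrial tissue in the values of Nppa was not tested.

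**Figure D2:**
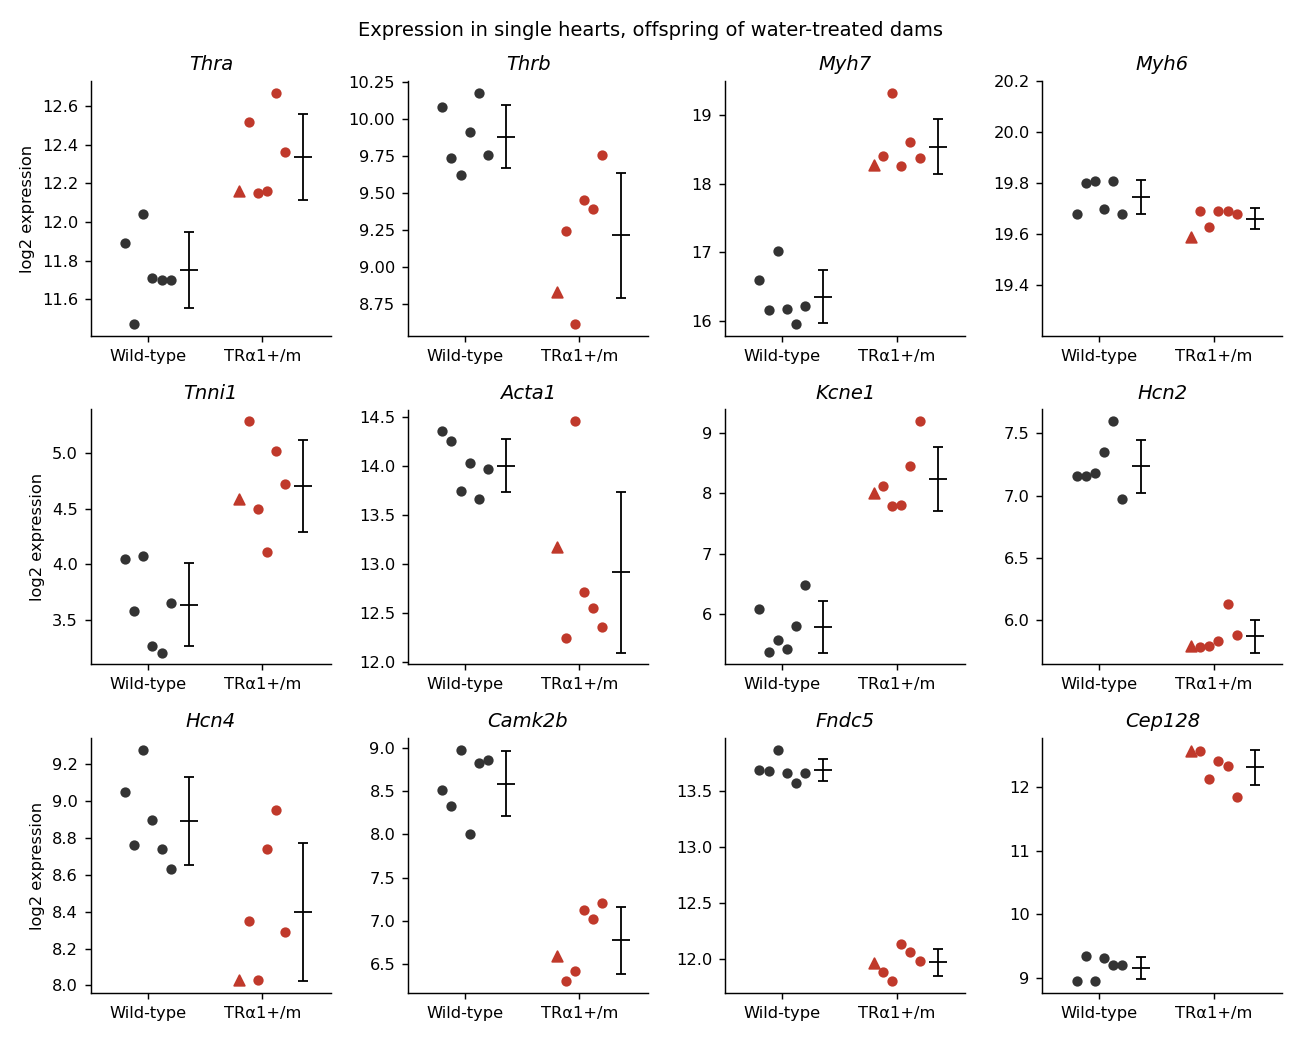
Expression of 12 genes in each of the 6 wild-type and 6 TRα1+/m hearts of water-treated dams (vertical axes, log2 expression, each with its own range); points are mice, the triangle is TRα1+/m mouse 4, and bars show mean and SD. The groups are separate for Thra, Myh7, Tnni1, Kcne1, Hcn2, Camk2b, Fndc5 and Cep128, and overlap for Thrb, Myh6, Acta1 and Hcn4.

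Among the channels that set the rhythm of the heart, Hcn2 fell and Kcne1 rose, while most others did not pass. Hcn2, a pacemaker channel opened by hyperpolarisation, ran from 6.97 to 7.60 in wild-type hearts (median 7.17) and from 5.78 to 6.13 in TRα1+/m hearts (median 5.81). There was no overlap, and the measured fall was 1.37 (standard error 0.18, adjusted p = 7.1e-05), to the level of the negative controls. Its relative Hcn4, the main pacemaker channel of the sinus node, ran from 8.63 to 9.28 and from 8.03 to 8.95, which overlap, and its difference of -0.49 did not pass (adjusted p = 0.272). Of 36 pacemaker, sodium and calcium channel genes, 0 rose and Hcn2 alone fell, with a median of -0.03. That is 2.78%, against 1.62% of all genes tested. The sodium channel subunit Scn4b was just outside, at -0.83 (adjusted p = 0.0502). Whole hearts hold few sinus node cells, and fewer cells of a type and less RNA per cell cannot be told apart in such samples.

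Kcne1, the β-subunit that slows the delayed rectifier Kcnq1, was the potassium channel gene with the clearest change. It lay at 5.37 to 6.48 in wild-type hearts (median 5.68) and at 7.79 to 9.20 in TRα1+/m hearts (median 8.06), without overlap. The wild-type values were at the level of the negative controls, and the measured rise was 2.45 (standard error 0.26, adjusted p = 1.24e-06). Its partner Kcnq1 was at 0.02 (adjusted p = 0.988). Kcna1, a voltage-gated channel known best from nerve, fell from a range of 5.09 to 6.36 in wild-type to one of 4.19 to 5.53 in TRα1+/m hearts, which overlap and lie near or under the negative controls (-1.24, standard error 0.22, adjusted p = 0.00156). Kcnk6, a background channel, fell by 0.83 (adjusted p = 0.0443), and missed the threshold in 10 of 12 fits without 1 mouse. These 3 were all of the 79 tested potassium channel genes that passed, or 3.8% against 1.62% of all genes tested. The median of the 79 was -0.03. Genes of repolarising currents that T3 is known to act on were among those that did not pass, with Kcnd2 at -0.54 (adjusted p = 0.158), Kcnh2 at -0.12 (adjusted p = 0.873) and Kcna5 at -0.07 (adjusted p = 0.953).

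In calcium handling, Camk2b and Hrc fell and 0 of 49 genes rose, so that 4.08% passed, against 1.62% of all genes tested. Camk2b encodes the β chain of calmodulin-dependent kinase II. It ran from 8.0 to 8.98 in wild-type hearts (median 8.67) and from 6.30 to 7.20 in TRα1+/m hearts (median 6.80), a 3.50-fold fall without overlap (-1.81, standard error 0.26, adjusted p = 0.000184). The δ chain, Camk2d, which is the main form in heart muscle, was at 0.08 (adjusted p = 0.918). Hrc, which binds calcium inside the reticulum, fell by 0.53 (adjusted p = 0.0239) with values of 15.75 to 16.06 and 15.12 to 15.59, and missed the threshold in 5 of 12 fits without 1 mouse. The classical T3 targets of this group did not pass. The calcium release channel gene Ryr2 ran from 15.91 to 16.28 in wild-type and from 15.82 to 15.99 in TRα1+/m hearts (-0.20, adjusted p = 0.574). The pump gene Atp2a2 (0.00, adjusted p = 0.997) and its inhibitor Pln (0.03, adjusted p = 0.959) lay at 19.91 to 19.93 and 19.31 to 19.45. The highest value of the table is 19.93, so a rise of Atp2a2 could not be seen and a fall could be hidden. Pln lies near that ceiling too, so a difference of Pln could also be hidden.

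Of 61 genes of autonomic signalling, 3 rose, 3 fell and 55 did not pass, with a median of 0.00. The share that passed was 9.84%, against 1.62% of all genes tested. Grk5 and Grk3, kinases that desensitise β-adrenergic receptors, and Adcy5, one of the main cardiac adenylyl cyclases, rose. Grk5 ran from 10.79 to 11.68 in wild-type and from 12.14 to 12.63 in TRα1+/m hearts, without overlap (1.02, standard error 0.18, adjusted p = 0.00156). Grk3 rose by 0.77 (adjusted p = 0.0191) and Adcy5 by 0.84 (adjusted p = 0.0245), and these missed the threshold in 3 and 7 of 12 fits without 1 mouse. Rgs4, which shortens signals of inhibitory G proteins, fell from a range of 8.72 to 9.44 in wild-type to one of 7.60 to 8.53 in TRα1+/m hearts, without overlap (-1.03, standard error 0.21, adjusted p = 0.00638). Rgs7, of the same family, fell by 0.92 (adjusted p = 0.0463) and Crhr2, the cardiac receptor for urocortins, by 0.65 (adjusted p = 0.0231). They missed the threshold in 9 and 5 of the 12 fits, and Rgs7 also in the fit of the 12 arrays alone (adjusted p = 0.0848) and with the label number range as a block (adjusted p = 0.0924). The muscarinic receptor gene Chrm2 was at -0.80 (adjusted p = 0.204).

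Conduction system genes gave 1 rise and 1 fall among 30, or 6.67% against 1.62% of all genes tested. Cntn2, a surface protein that marks the Purkinje network, lay at 6.40 to 7.50 in wild-type and at 5.77 to 6.57 in TRα1+/m hearts. The lowest wild-type value was that of mouse 2, and the other 5 lay at 7.33 or higher. The fall was 1.06 (standard error 0.20, adjusted p = 0.00337) and larger without that mouse, at 1.23. Hand2, a transcription factor of the developing right ventricle, rose by 0.51 (adjusted p = 0.0342), and missed the threshold in 9 of 12 fits without 1 mouse and with the 12 arrays alone (adjusted p = 0.0611).

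Metabolic genes held several of the largest changes, among them carriers and enzymes for small carbon compounds. Slc16a7, a monocarboxylate transporter (MCT2) with high affinity for pyruvate and lactate, ran from 6.78 to 8.44 in wild-type hearts (median 8.0) and from 9.94 to 11.06 in TRα1+/m hearts (median 10.82). This was a 6.94-fold rise without overlap (2.79, standard error 0.26, adjusted p = 1.3e-07). Bsg, basigin, which escorts such transporters to the membrane, fell by 0.47 (adjusted p = 0.0216), and missed the threshold without wild-type mouse 2 and without TRα1+/m mice 4 and 5, with adjusted p of up to 0.0631. Ogdhl, an oxoglutarate dehydrogenase of mitochondria, fell from a range of 12.04 to 12.86 in wild-type to one of 10.16 to 11.19 in TRα1+/m hearts (-1.78, standard error 0.21, adjusted p = 1.38e-05). Ldhd, a mitochondrial D-lactate dehydrogenase, fell by 0.96 (adjusted p = 0.000716), with 8.38 to 8.90 against 7.33 to 8.15.

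In all, 2 of 62 genes of glucose, lactate and citrate cycle metabolism rose and 5 fell, and the median was -0.15. The share of 11.3% stands against 1.62% of all genes tested. Beside Slc16a7, the gene that rose was Hk1, the hexokinase that phosphorylates glucose (0.48, adjusted p = 0.0412). The falls of Phkb, a subunit of phosphorylase kinase (-0.67, adjusted p = 0.0342), and Slc2a12, a glucose transporter (-0.77, adjusted p = 0.0455), completed the list. Without TRα1+/m mouse 4 the list had 2 rises and 2 falls. Hk1, Phkb and Slc2a12 missed the threshold in 10, 7 and 11 of 12 fits without 1 mouse. With the label number range as a block Phkb (adjusted p = 0.0696) and Slc2a12 (adjusted p = 0.0858) also missed it. Slc2a12 had its lowest value, 5.53, in TRα1+/m mouse 4, and the other 5 TRα1+/m hearts lay at 6.22 to 6.54, below the wild-type range of 6.82 to 7.30. Of 79 oxidative phosphorylation genes 0 passed in limma, and 1 had an unadjusted p under 0.05, as had 11.5% of all genes tested. The median of that list was -0.02, and -0.17 without TRα1+/m mouse 4, with 7 of 79 positive. With the label number range as a block the median was -0.20, with 9 of 79 positive and 0 passed. Among label numbers above 30 alone it was -0.13, and 2 of the 79 fell.

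Of 72 genes of fatty acid and lipid metabolism, 1 rose and 2 fell, which is 4.17% against 1.62% of all genes tested. Scd4, a stearoyl-CoA desaturase that the mouse expresses chiefly in the heart, ran from 9.26 to 10.09 in wild-type and from 11.06 to 12.74 in TRα1+/m hearts, a 5.54-fold rise without overlap (2.47, standard error 0.38, adjusted p = 0.000402). Near-identical desaturase genes lie beside it, and array probes may not part them fully. Lpin1, a phosphatidic acid phosphatase and coactivator of fatty acid oxidation genes, fell from a range of 14.61 to 14.99 in wild-type to one of 13.17 to 14.02 in TRα1+/m hearts (-1.0, standard error 0.20, adjusted p = 0.00498). Acsl6, an acyl-CoA synthetase, fell from a range of 7.85 to 8.74 in wild-type to one of 6.58 to 7.70 in TRα1+/m hearts, also without overlap (-1.22, standard error 0.21, adjusted p = 0.00132). Markers of fat cells are given beside these values. All 9 tested adipocyte genes had a positive difference (median 0.74) and 0 passed, and their mean level ran from 6.81 to 8.92 in wild-type and from 7.19 to 9.67 in TRα1+/m hearts. Their part in the lipid genes was not tested.

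Fndc5, the precursor of irisin, had a narrow spread in both groups. It lay at 13.57 to 13.87 in wild-type hearts (median 13.67) and at 11.80 to 12.13 in TRα1+/m hearts (median 11.97), a 3.29-fold difference (-1.72, standard error 0.12, adjusted p = 2.08e-10). The gap between the groups was 1.44. Abat, the GABA transaminase of mitochondria, fell from a range of 10.23 to 10.88 in wild-type to one of 8.35 to 9.60 in TRα1+/m hearts (-1.60, adjusted p = 0.00011). Egln3, a prolyl hydroxylase that marks hypoxia-inducible factors for decay, fell by 1.58 (standard error 0.37, adjusted p = 0.0191). It missed the threshold without wild-type mouse 58 and without TRα1+/m mouse 4, with adjusted p of up to 0.0606. Letm1, a cation exchanger of the inner mitochondrial membrane (-1.07, adjusted p = 0.00011), and Gpt2, the mitochondrial alanine transaminase (-1.09, adjusted p = 0.000236), fell too. These 2 were singled out after their values were seen.

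Periostin and a gelatinase rose clearly among the matrix genes, most of which did not pass. Of 62 matrix and fibroblast genes, 4 rose (Postn, Comp, Mmp2 and Col5a2) and 1 fell (Adamts5), or 8.06% against 1.62% of all genes tested. A positive difference was found for 42 of 62, against 9674 of all 19801 genes tested, and the median was 0.17 (0.25 without TRα1+/m mouse 4). Beside them, the epicardial and smooth muscle lists had medians of 0.35 and 0.27 with 0 genes passed, the adipocyte list had 0.74, and their part in the matrix values was not tested. Postn, periostin, a matricellular protein of activated fibroblasts, ran from 8.54 to 9.51 in wild-type and from 9.96 to 11.35 in TRα1+/m hearts (1.68, standard error 0.31, adjusted p = 0.00261). Mmp2, a gelatinase that degrades matrix, lay at 11.80 to 12.02 and 12.36 to 13.23 (0.97, standard error 0.15, adjusted p = 0.000486). Neither overlapped. Comp, a cartilage matrix protein, rose by 1.15 (adjusted p = 0.0217) and missed the threshold in 4 of 12 fits without 1 mouse. For Col5a2, a fibrillar collagen that rose by 0.80 (adjusted p = 0.047), it was 9 of 12, and the call was also lost with the label number range as a block (adjusted p = 0.0702). Adamts5, a protease of aggrecan and versican, fell by 0.74 (adjusted p = 0.0286) and missed it in 6 of 12. The major collagens did not pass, with Col1a1 at 0.83 (adjusted p = 0.143) and Col3a1 at 0.70 (adjusted p = 0.231). The fibroblast markers Dcn and Tcf21 were at 0.13 (adjusted p = 0.78) and 0.06 (adjusted p = 0.969).

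Several secreted regulators rose beside them. Sfrp2, a soluble modulator of Wnt signalling, ran from 8.21 to 9.0 in wild-type and from 9.31 to 11.44 in TRα1+/m hearts, a 3.50-fold rise without overlap (1.81, standard error 0.30, adjusted p = 0.000851). Fstl4, a follistatin-like protein, lay at 6.40 to 7.47 and 8.02 to 8.93 (1.57, adjusted p = 0.000753). Igf2, the fetal insulin-like growth factor, ran from 12.22 to 13.14 in wild-type and from 12.86 to 14.83 in TRα1+/m hearts (1.47, standard error 0.30, adjusted p = 0.00719). The overlap came from TRα1+/m mouse 4 at 12.86, while the other 5 lay at 14.13 or higher, and without that mouse the rise was 1.72 (adjusted p = 0.000901). Plagl1, an imprinted zinc finger gene known to regulate Igf2, rose by 1.35 (adjusted p = 0.0108), with 6.33 to 7.89 against 8.10 to 9.36. Other called members of the fetal and hypertrophy list were Myh7, Tnni1, Fhl1 and Hand2, so that 5 of 43 rose with Igf2 and Acta1 alone fell. In that list 14% passed, against 1.62% of all genes tested.

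In the lists of endothelial, interferon response and immune cell genes, 11 members fell and 0 rose. Of all genes tested 1.06% fell and 0.566% rose. With the 12 arrays alone 1 immune and 1 endothelial gene rose as well. Of 28 endothelial genes, 4 fell and 0 rose, which is 14.3% against 1.06% lower among all genes tested, with a median of -0.14. Aqp1, the water channel of capillaries, ran from 13.52 to 14.27 in wild-type and from 12.20 to 13.39 in TRα1+/m hearts (-1.26, standard error 0.21, adjusted p = 0.000751). Vwf, the von Willebrand factor of platelet adhesion, lay at 9.43 to 10.34 and 8.51 to 9.15 (-0.99, adjusted p = 0.00362). Tie1, a receptor kinase of vessel formation (-0.81, adjusted p = 0.00358), and Nos3, the endothelial nitric oxide synthase (-0.76, adjusted p = 0.0235), fell as well, and Nos3 missed the threshold in 7 of 12 fits without 1 mouse. The mean over the 28 genes was 11.07 to 11.18 in wild-type and 10.84 to 10.98 in TRα1+/m hearts, without overlap. The general endothelial markers Pecam1, Cdh5 and Kdr had differences of 0.07, -0.17 and -0.21 and did not pass. Aplnr, the apelin receptor, which vessels of the developing heart express, fell from a range of 10.35 to 11.25 in wild-type to one of 8.49 to 10.06 in TRα1+/m hearts (-1.60, standard error 0.26, adjusted p = 0.00066).

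Interferon response genes leaned down as a list. Of 42 tested, 36 had a negative difference, 5 fell and 0 rose, and the median was -0.42 against -0.01 for all genes tested. A negative difference was found for 10127 of all 19801 genes tested. The share that fell was 11.9%, against 1.06% of all genes tested. The mean over the 42 genes lay at 7.31 to 7.70 in wild-type and 6.93 to 7.12 in TRα1+/m hearts. Gbp3, an interferon-induced GTPase, ran from 7.97 to 8.82 and from 6.61 to 7.19 (-1.37, standard error 0.21, adjusted p = 0.00031). Cxcl9, a chemokine induced by interferon-γ, lay at 7.30 to 8.50 and 6.07 to 6.83 (-1.42, standard error 0.30, adjusted p = 0.00957). Neither overlapped. Rsad2, an antiviral enzyme, fell by 1.20 (adjusted p = 0.0224), Gbp2 by 0.96 (adjusted p = 0.0163) and Ifih1, a sensor of viral RNA, by 0.85 (adjusted p = 0.0083). Rsad2 missed the threshold in 5 of 12 fits without 1 mouse, and Gbp2 without wild-type mice 57 and 58 and without TRα1+/m mouse 4, with adjusted p of up to 0.0573. With the 12 arrays alone Gbp2 was just outside (adjusted p = 0.0536).

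Immune cell markers were close by in their direction, and their part in the interferon values was not tested. Of 35 such genes 23 had a negative difference, against 10127 of all 19801 genes tested. In the list 2 fell and 0 rose, and the median was -0.26. The share that fell was 5.71%, against 1.06% of all genes tested. Outside the lists, the mast cell tryptase gene Tpsb2 rose by 1.02 (adjusted p = 0.00358) and the chemokine receptor gene Cxcr4 by 0.70 (adjusted p = 0.0421), both named after their values were seen. The mean level of the 35 genes of the list ran from 6.73 to 6.96 in wild-type and from 6.47 to 6.76 in TRα1+/m hearts, which overlap. Without TRα1+/m mouse 4, 1 of the 35 passed. Csf1r, the growth factor receptor of macrophages, fell from a range of 10.47 to 10.94 in wild-type to one of 9.34 to 9.93 in TRα1+/m hearts (-1.06, standard error 0.21, adjusted p = 0.00507). Timd4, a phagocytic receptor of resident macrophages, fell by 0.83 (adjusted p = 0.0286) and missed the threshold in 7 of 12 fits without 1 mouse and with the label number range as a block (adjusted p = 0.0601). Clec12a, an inhibitory lectin receptor of myeloid cells outside that list, fell from a range of 7.42 to 8.22 in wild-type to one of 5.87 to 6.70 in TRα1+/m hearts (-1.45, adjusted p = 0.00031). The pan-leukocyte marker Ptprc was at -0.31 (adjusted p = 0.811) and the macrophage marker Adgre1 at -0.32 (adjusted p = 0.697).

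Some of the largest changes were in genes with no established place in heart physiology. Cep128, a protein of centrioles, lay at 8.95 to 9.34 in wild-type hearts (median 9.21) and at 11.84 to 12.57 in TRα1+/m hearts (median 12.36). This 8.80-fold rise (3.14, standard error 0.16, adjusted p = 4.69e-13) was the largest of all, and the gap between the groups was 2.50. The gene lies on chromosome 12, at 90998490 to 91384455 on GRCm38.p6. Lrtm1, a membrane protein with leucine-rich repeats, ran from 15.93 to 16.51 and from 13.79 to 14.33 (-2.21, standard error 0.25, adjusted p = 6.51e-06). Apobec1, the cytidine deaminase that edits apolipoprotein B mRNA, fell from a range of 8.37 to 9.48 in wild-type to one of 6.58 to 7.55 in TRα1+/m hearts (-1.92, adjusted p = 0.000101). Ano5, a membrane protein of muscle whose loss in humans causes muscular dystrophy, fell from a range of 5.94 to 7.07 in wild-type to one of 3.92 to 5.77 in TRα1+/m hearts (-1.88, adjusted p = 0.00544). None of these overlapped. Tmem196, which did, fell by 1.52 (adjusted p = 0.00337). The TRα1+/m means of Ano5 and Tmem196 were at or under the negative controls.

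The remaining members of the 20 largest rises were Vmn1r3, Lad1, Ecrg4, Lrrc4b, Lpar3, Olfml2b, Septin6, Map3k7cl and Pirt, at 1.16 to 1.86. Of these Lad1, Lpar3 and Map3k7cl overlapped between the genotypes. Vmn1r3, Ecrg4, Lpar3 and Map3k7cl had wild-type means at or under the negative controls. The remaining falls were those of Ccbe1, Cbr2, Slc17a7, Cmah, Tnfaip2 and Pde7b, at -1.52 to -1.37, of which Slc17a7 overlapped. Ccbe1 is required for lymphatic vessels, and Pde7b degrades cyclic AMP. Pde7b missed the threshold in 4 of 12 fits without 1 mouse. The rest of these 15 genes passed in all 12.

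Chaperones and stress genes gave 1 rise and 2 falls among 36, or 8.33% against 1.62% of all genes tested. Hspb8, a small heat shock protein that helps clear damaged filaments, ran from 14.94 to 15.42 in wild-type and from 14.13 to 14.67 in TRα1+/m hearts (-0.77, standard error 0.13, adjusted p = 0.00126). Nqo1, a quinone reductase of the antioxidant response, lay at 10.40 to 10.90 and 11.38 to 11.78 (0.96, standard error 0.18, adjusted p = 0.00374). Neither overlapped. Hsph1, a large chaperone, fell by 0.98 (adjusted p = 0.0341) and missed the threshold in 8 of 12 fits without 1 mouse and with the label number range as a block (adjusted p = 0.0704).

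Several lists had members that leaned one way without any that passed in limma. Of all 19801 genes tested, 9674 had a positive and 10127 a negative difference, and 11.5% had an unadjusted p under 0.05. All 47 ribosomal protein genes had a positive difference (median 0.35), 3 had an unadjusted p under 0.05 and 0 passed. Without TRα1+/m mouse 4 the median was 0.21 and 43 of 47 were positive. The epicardial list had 10 of 12 positive (median 0.35) and the smooth muscle list 10 of 13 (median 0.27), with 1 and 3 genes at an unadjusted p under 0.05. Circadian clock and cell cycle genes had medians of 0.10 and -0.02, and 0 of 23 and 0 of 27 passed, with 2 and 1 at an unadjusted p under 0.05. The atrial list, whose level depends on how much atrium a sample holds, ran from 10.97 to 13.28 in wild-type and from 11.31 to 13.34 in TRα1+/m hearts, and its median was -0.21.

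**Figure D3:**
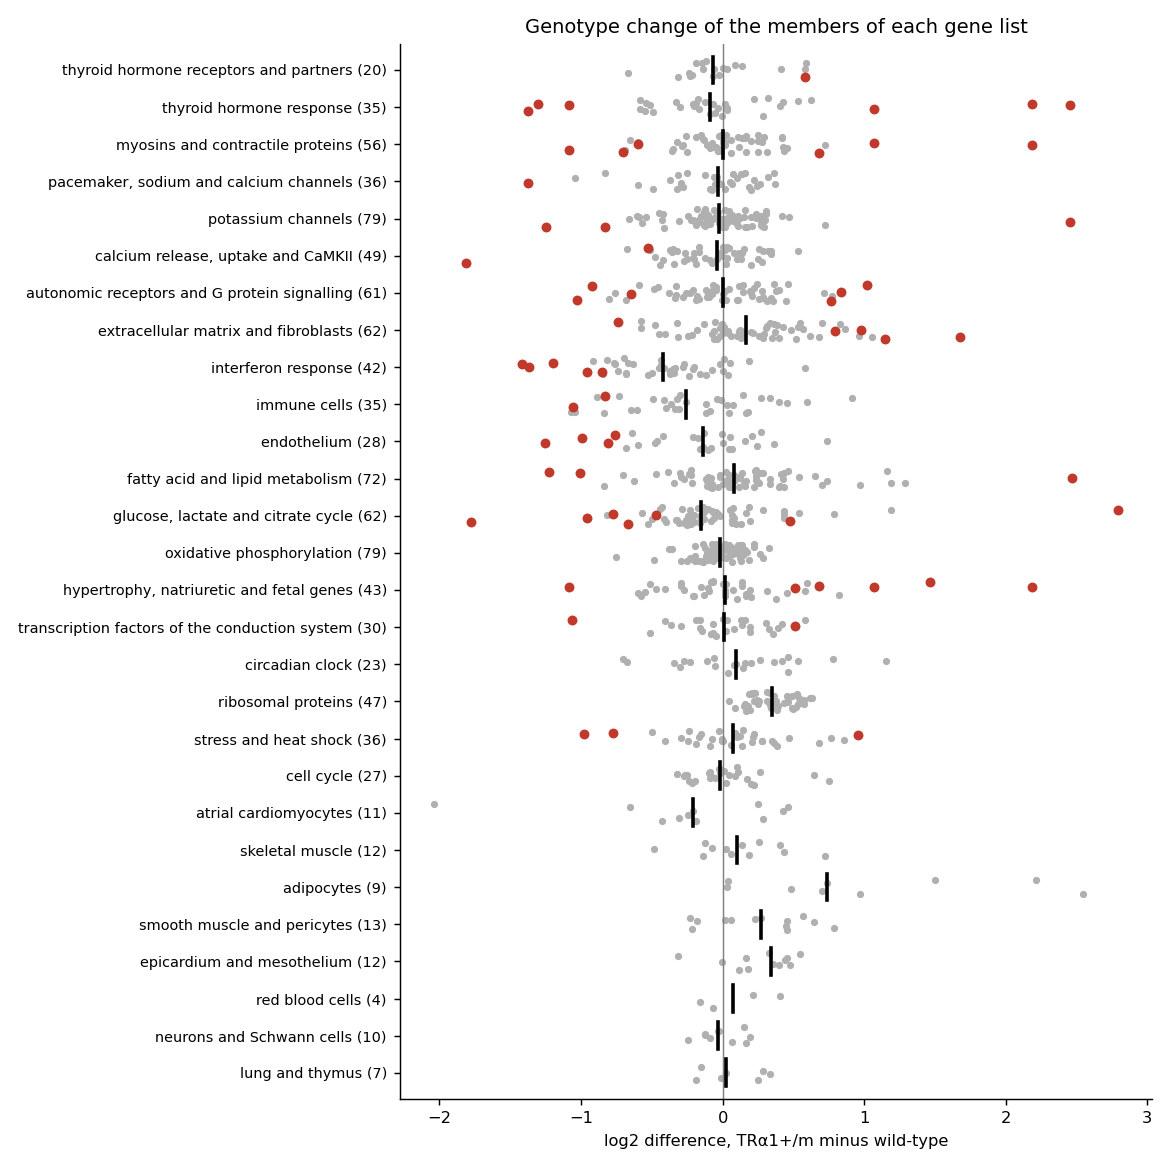
Difference between TRα1+/m and wild-type hearts on the log2 scale (horizontal axis) for every tested member of 28 gene lists, with the number of members in brackets; red points passed the limma test, grey points did not, and the black bar is the median of the list. The interferon list has the lowest median, -0.42, and the adipocyte list the highest, 0.74.

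**Figure D4:**
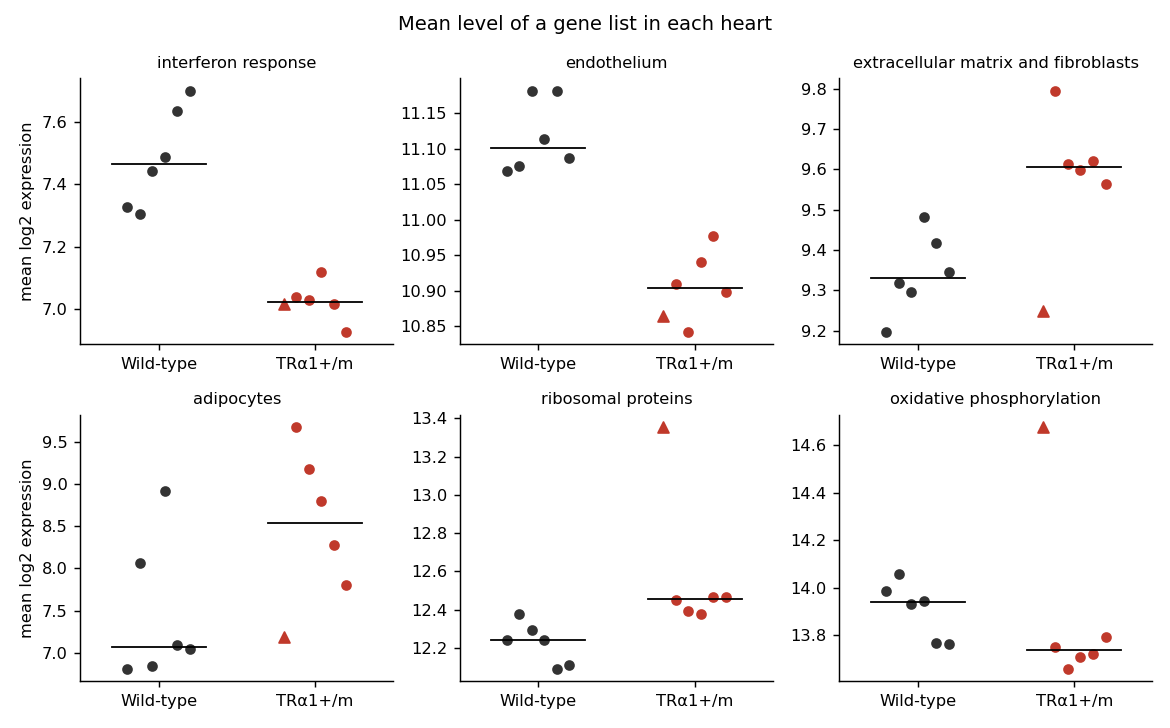
Mean log2 expression of 6 gene lists in each wild-type and TRα1+/m heart of water-treated dams (vertical axes, each with its own range); points are mice, the triangle is TRα1+/m mouse 4 and the line is the median of the group. The genotypes are separate for the interferon and endothelial lists, and TRα1+/m mouse 4 stands at the top for ribosomal proteins (13.35) and oxidative phosphorylation (14.68).

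Genes around Thra were examined because the mutation was placed there. Nr1d1, a clock repressor, overlaps Thra in the annotation, and its values of 10.70 to 12.83 in wild-type and 10.95 to 13.31 in TRα1+/m hearts did too (0.53, adjusted p = 0.687). The 10 genes nearest to Thra, Nr1d1 included, had differences of -0.44 (Gsdma2) to 0.53, and 0 passed in limma. An unadjusted p under 0.05 was found for 1 of these 10, and for 11.5% of all genes tested. The lowest adjusted p of the 10 was 0.413. Gsdma and Gsdma2 are neighbours of like sequence. Within 10 Mb, 2 of 337 genes rose (Vat1 and Wfikkn2) and 3 fell (Krt222, Ace and Utp18), or 1.48% against 1.62% over all genes. Krt222, an unusual keratin with its start 0.464 Mb past the end of Thra, fell by 1.12 (standard error 0.18, adjusted p = 0.000751). Ace, the angiotensin-converting enzyme of vessels, fell by 0.67 (adjusted p = 0.0315).

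**Figure D5:**
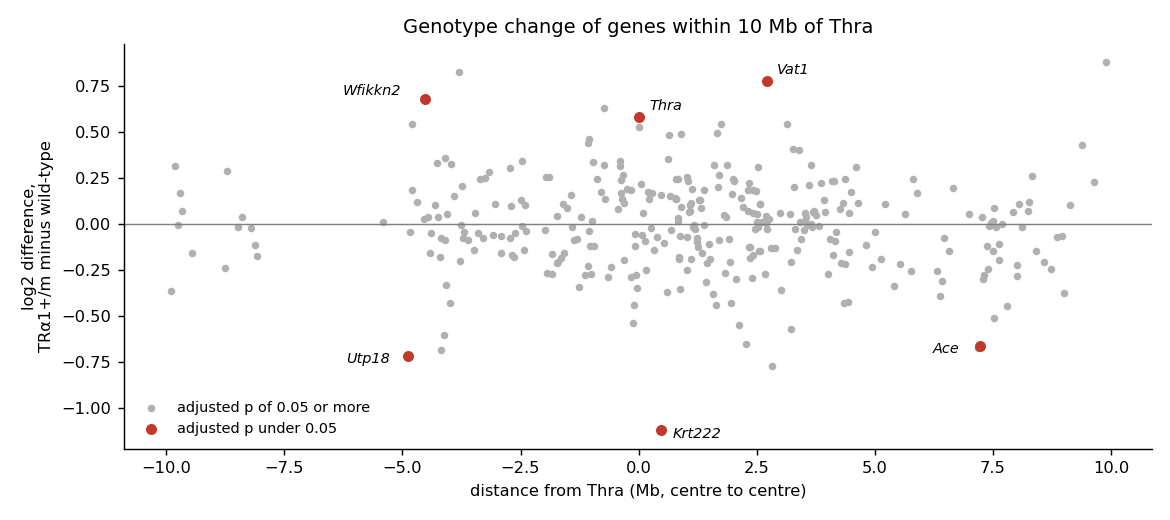
Difference between TRα1+/m and wild-type hearts on the log2 scale (vertical axis) for genes within 10 Mb of Thra, by their distance from it (horizontal axis, Mb, centre to centre); red points have an adjusted p under 0.05. Thra and 5 others are red, and they are spread over the window.

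The genotype comparison was repeated in the 12 mice of T3-treated dams, which share no animal with the first comparison, although the estimate of the spread is common to both. There 552 genes differed, or 2.79%, of which 224 were higher (1.13%) and 328 lower (1.66%). Of the 321 genes called without maternal T3, 315 had a difference of the same sign after it, and 207 (64.5%) passed in the same direction. These 207 are 37.5% of the 552. Cep128 rose by 3.76 there, Slc16a7 by 3.43 and Kcne1 by 2.88, and Lrtm1 fell by 2.05, Camk2b by 1.78, Fndc5 by 1.57 and Hcn2 by 1.39. Scd4 was at 1.32 there and did not pass (adjusted p = 0.0615). Csf1r at -0.26 (adjusted p = 0.667) and Tie1 at -0.41 (adjusted p = 0.198) did not pass there either. Thra was higher by 0.73 (adjusted p = 0.0011) and Myh7 by 1.47 (adjusted p = 7.44e-05). The median difference of the 112 risen genes was 0.87 without and 0.79 after maternal T3, and that of the 209 fallen genes -0.88 and -0.81. A list chosen for passing in 1 set of mice can be smaller in another for that reason alone.

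Whether a genotype difference changed with maternal T3 was tested as the interaction, and 0 genes passed in limma. An unadjusted p under 0.05 was found for 830 of the 19801 genes tested, 31 of them among the 321, and the smallest adjusted p was 0.127. The difference by which the 321 were called is itself a term of the interaction, so the 31 are not an independent count. The 6 called genes whose sign was opposite after maternal T3 were Slc25a28, Plekha6, Lca5l, Olfr1378, Slc2a12 and a probe set without a symbol. That probe set was lower without maternal T3 (-0.76, adjusted p = 0.0231) and higher after it (0.67, adjusted p = 0.0404), and had the smallest adjusted p of all interactions, 0.127. Its group means of 3.68 to 4.61 lie under the negative controls. Slc25a28, an iron carrier of mitochondria, rose by 0.63 without and had a difference of -0.13 after maternal T3. The difference of Slc2a12 was -0.77 without and 0.27 after maternal T3 (interaction 1.05, adjusted p = 0.904 in limma). Among the fixed genes that did not pass without maternal T3, Nppb was lower by 2.46 after it (adjusted p = 8.56e-05), with an interaction of -1.91 (adjusted p = 0.848). Ryr2, at -0.20 without maternal T3, was at 0.17 after it (adjusted p = 0.618). The interaction of Ryr2 was 0.37 (unadjusted p = 0.0415 in limma) and did not pass after adjustment. Values of the 2 sets of mice are therefore given side by side, with no call of a difference between them.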

How the data were processed

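Whole-heart RNA of 24 male mice was hybridised to Clariom S mouse arrays, 1 per mouse. Per the submitters' processing notes and the methods, the authors ran RMA (Transcriptome Analysis Console 4.0.1), and the deposited log2 values are therefore background-corrected, normalised between arrays and summarised per probe set; the number of arrays limits the precision. Of 28846 probe sets, 6640 were controls and not used. Gene symbols are those of the platform annotation, which matched RefSeq by gene number for all 19572 probe sets that had one, while 2634 had none. The probe set with the highest mean was kept for 55 symbols with several. The methods name a filter at a log value above 4 without its rule. A group mean above 4 in at least 1 of the 4 groups was used here and left 19801 genes and unnamed probe sets, 17478 of them with a symbol.

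Group means of all 24 arrays were fitted with limma 3.58.1 (lmFit and eBayes) in R 4.3.3, with Benjamini-Hochberg adjustment over the genes tested and calls at an adjusted p under 0.05. The fit had 20 residual and 6.80 prior degrees of freedom. The same fit gave the genotype difference after maternal T3 and the interaction. Named genes were, of the called genes with a regular symbol, the 20 with the highest and the 20 with the lowest difference, every called member of 28 gene lists, 15 fixed genes, the 10 genes nearest to Thra and the called genes of opposite sign after maternal T3; others were named after their values were seen, among them Letm1, Gpt2, Tpsb2, Cxcr4, the called genes within 10 Mb of Thra and list members given as examples that did not pass. The genes compared and the lists were chosen with earlier results of these data known.

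The alternatives were the 12 arrays alone, no filter, a filter at 5 or over the 2 groups compared, array weights, a robust eBayes fit with a trend, the label number range as a block or its upper part alone, median centring, unmerged probe sets, an unadjusted p, a 1.5-fold minimum and leaving out each mouse. The fit was tested on simulated data. Python 3.11.15 and matplotlib 3.10.9 drew the figures.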

Additional observations from a re-analysis of the deposited data

Results flagged for a closer look

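The values of the 104 named genes and 7 array measures were searched in each group of 6 for a mouse far from the other 5, by Dixon's criterion. Of 222 groups 16 (7.21%) were marked, where chance marks about 1 in 20.

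TRα1+/m mouse 4 gave 9 of the 16. Its first and second principal components were 48.38 and 43.13, against 6.41 to 16.35 and -24.91 to -13.92 in the other TRα1+/m mice, and its ribosomal mean was 13.35. It was the lowest TRα1+/m mouse for Igf2 (12.86; others 14.13 to 14.83), Hk1 (15.16; others 15.36 to 15.40), Med24 (11.14; others 11.63 to 11.90), Slc2a12 (5.53; others 6.22 to 6.54) and Lpin1 (13.17; others 13.80 to 14.02), and the highest for Tnni3 (17.62; others 17.19 to 17.29).

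In TRα1+/m hearts, mouse 6 was high for Myh7 (19.33; others 18.26 to 18.61) and mouse 53 for Hcn2 (6.13; others 5.78 to 5.88). In wild-type hearts, mouse 39 was high for Scd4 (10.09; others 9.26 to 9.41) and mouse 56 for Rapgefl1 (5.66; others 4.95 to 5.18). Mouse 2 was low for Cntn2 (6.40; others 7.33 to 7.50) and for Atp2a2 (19.92; others 19.93), and mouse 58 for Pln (19.31; others 19.39 to 19.42). For Atp2a2 the whole range is at the upper end of the scale.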

How the results depend on the processing

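The counts of 112 higher and 209 lower genes stayed within 1.5 times under 9 of 13 other settings. With array weights they were 212 and 345. In the mice numbered above 30 (5 wild-type, 3 TRα1+/m) they were 60 and 99, and 130 of these 159 were among the 321. Among label numbers below 20 alone (1 wild-type, 3 TRα1+/m), a setting chosen after seeing the data in which the lone wild-type mouse is assumed to vary like the other groups, they were 2 and 1. At an unadjusted p under 0.05 they were 978 and 1302. The number of mice differs between these sets, and other causes were not tested. Leaving out 1 mouse gave 86 to 114 higher and 145 to 187 lower genes, and no gene of the 321 changed sign in any setting.

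Of the 85 named genes that passed, 55 passed in each of the 12 fits that left out 1 mouse and 6 missed with the 12 arrays alone: Acta1, Hand2, Gbp2, Rgs7, Plekha6 (adjusted p = 0.0862) and Olfr1378 (adjusted p = 0.106). Among label numbers above 30, 34 missed, among them Thra at 0.67 (adjusted p = 0.0735) and Tnni1 at 1.06 (adjusted p = 0.0859). Aqp1 at -0.78 (adjusted p = 0.126), Sfrp2 at 1.30 (adjusted p = 0.0564) and Tie1 at -0.68 (adjusted p = 0.0695) were also among the 34. So were Cxcl9 at -1.425 (adjusted p = 0.0683) and Bcl3 at -1.17 (adjusted p = 0.0697). No paired analysis was possible because no number in the labels is shared between the groups. With label numbers below 20 and above 30 as blocks, 122 genes were higher and 189 lower, 269 of them among the 321, while 580 genes differed between the ranges. Of the named genes, Col5a2, Phkb, Lmod3, Slc2a12, Timd4, Rgs7, Hsph1, Slc25a28 (adjusted p = 0.0933), Plekha6 (adjusted p = 0.059) and Lca5l (adjusted p = 0.0563) lost their call under these blocks. Myh6 and Atp2a2 lie near the upper end of the scale, 19.93, and 15 named genes that passed have a group mean at or under the negative controls, so the sizes of their changes cannot be read.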
